A study of Sus scrofa with 11 samples.

Results

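Slices of pig heart kept in stimulated culture for 10 days were compared, across all genes, with slices kept in the same culture for 6 days. The comparison rests on 6 of the 11 RNA-seq libraries of the study, chosen by their labels alone, with 3 libraries at day 10 and 3 at day 6. All slices came from wild-type (WT) Yorkshire pigs aged 3 months. The other 5 libraries, 3 from slices at day 0 and 2 from slices at day 2 of stimulated culture, enter as part of the shared estimate of spread and for the early change. How the slices were stimulated and whether replicates came from separate animals is not in the labels, so p-values measure only the spread between these samples, which may be technical.

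Heart muscle cells carry a set of proteins found in few other cells: the sarcomere that contracts, the channels and calcium stores that trigger it, the junctions that couple neighbouring cells, and mitochondria that burn fatty acids to pay for it. Heart tissue also holds fibroblasts, vessel cells and macrophages. In injured or cultured heart, fibroblasts are known to turn into myofibroblasts, which make smooth muscle actin and lay down collagen.

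The labelled tissue was checked against markers of heart muscle. At day 6 the cardiac genes MYL3, TNNC1, ACTA1, TNNT2 and MYH6 were among the 10 most abundant named nuclear genes, while at day 10 that set held 8 ribosomal protein genes together with TMSB10 and TMSB4X, which encode small proteins that bind actin monomers. The reads behind the table numbered 11701035 to 16262471 per library at day 10 and 12470276 to 16775166 at day 6. Genes at 0 numbered 1771 to 2331 per library at day 10 and 1310 to 1512 at day 6, and the median FPKM (fragments per unit of gene length and sequencing depth) was 2.90 to 5.02 at day 10 and 5.17 to 6.70 at day 6. Outside the comparison, day 0 replicate 2 and day 2 replicate 1 stood apart, with 4536 and 4017 genes at 0. MYH7, TTN, ATP2A2, CKM and COL1A1 had no match by symbol and are not analysed here. Actins, myosins, metallothioneins and ribosomal protein genes have close relatives that can share reads, and their levels are uncertain to that extent.

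Of 12625 genes tested, 619 (4.9%) differed between day 10 and day 6 with a limma p-value, adjusted by Benjamini-Hochberg over all of them, under 0.05. Of these, 241 (1.91% of genes tested) were higher at day 10 and 378 (2.99%) were lower. In all 619 the 3 day 10 libraries lay entirely on one side of the 3 day 6 libraries, as did those of 4762 (37.7%) of all genes tested. The smallest change called was 1.49 on the log2 scale. Large losses outnumbered large gains: 89 called genes were lower by at least 4 on the log2 scale and 26 by at least 6, while 28 were higher by at least 4 and 6 by at least 6. The median log2 fold change of all genes tested was -0.43, and with median ratio scaling of the libraries, which brought it to -0.08, 303 genes were higher and 283 lower. Medians of gene lists are to be read against it.

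Libraries with the same replicate number at day 10 and day 6 deviated together from their group means, with correlations of 0.275, 0.2495 and 0.180, while pairs with different numbers lay between -0.176 and -0.0351. Each day's 3 libraries were centred on their mean, so positive pairs of the same number leave the other pairs negative on balance. A fit of these 6 libraries with the number as a block, the paired fit, called 812 genes higher (6.43% of genes tested) and 1994 lower (15.8%), among them all 619. Its counts in gene lists are to be read against these shares of all genes. That fit differs from the first in the block and in the 5 libraries it leaves out. Without the block the same 6 libraries gave 622 higher and 1281 lower, and with the block over all libraries it was 206 higher and 298 lower. With limma voom on whole reads recovered from the table, 309 genes were higher (2.45% of genes tested) and 407 lower (3.22%). Leaving out day 0 replicate 2, which takes no part in the difference and only changes the estimate of spread, gave 531 higher and 1013 lower of 12625 genes. Gene list counts from that fit are likewise to be read against these counts of all genes. Leaving out 1 library of day 10 or day 6 left as few as 91 higher genes, without day 6 replicate 3, and as few as 154 lower genes, without day 10 replicate 2. In each such fit that leaves out 1 of the 11 libraries, 80 of the 241 higher genes and 138 of the 378 lower genes were called again.

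**Figure D1:**
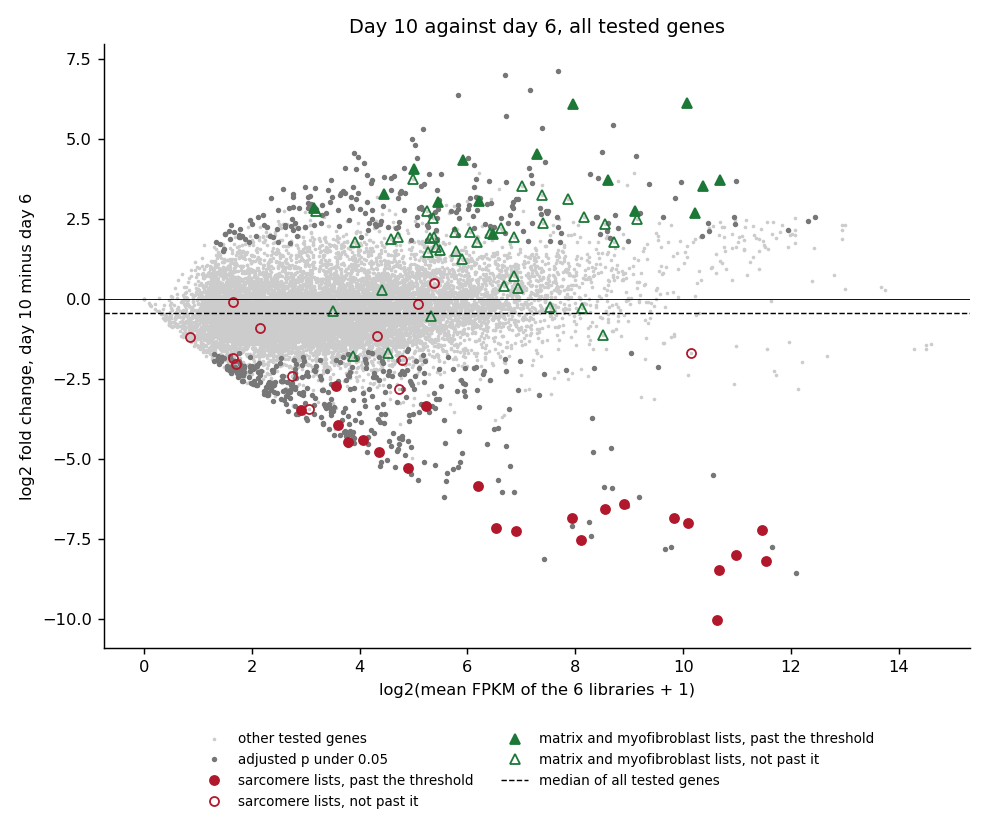
Log2 fold change of day 10 over day 6 (vertical axis) against the log2 of the mean FPKM of the 6 libraries plus 1 (horizontal axis) for 12625 genes, with members of the 2 sarcomere lists as circles and members of the matrix and myofibroblast lists as triangles, filled where the adjusted p was under 0.05. The filled circles reach down to -10.05, and the filled triangles reach up to 6.13.

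Sarcomere genes held a far smaller share of the RNA at day 10 than at day 6. Of 35 tested genes of the thick filament, thin filament and Z-disc, 22 (62.9%) were lower at day 10 and 0 were higher, and 34 had a negative log2 fold change. Together the 37 measured sarcomere genes held 0.0993%, 0.0527% and 0.159% of all FPKM in the day 10 libraries, against 3.30%, 5.21% and 3.91% in the day 6 libraries. The means were 0.104 ± 0.0532% at day 10 and 4.14 ± 0.972% at day 6 (SD, n = 3 each), and the two-sided exact permutation test gave p = 0.1, the smallest that 3 against 3 libraries allow. In bulk tissue, fewer muscle cells and less of these RNAs per cell cannot be told apart.

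Among thick filament genes, 6 of 8 fell and the median log2 fold change was -5.57. MYH6 (ENSSSCG00000002029), the alpha heavy chain of cardiac myosin, had 2.53, 1.39 and 1.30 FPKM at day 10, against 2063, 5295 and 2096 FPKM at day 6. All 3 day 10 libraries were far below the lowest day 6 library, and the mean at day 6 was 1811 times that at day 10. Its log2 fold change of -10.05 ± 0.61 (SE) was the most negative of the named genes, with a limma adjusted p of 3.16e-06. MYL3, the ventricular essential light chain, fell to 42.6, 22.1 and 6.01 FPKM at day 10, against 4045, 8832 and 4895 FPKM at day 6. MYBPC3, the myosin binding protein that tunes cross-bridges, was below 1 FPKM in every day 10 library, at 0.346, 0.103 and 0.162, against 130.2, 286 and 134 FPKM at day 6. TRIM63, a ubiquitin ligase of the M-band, and the M-band proteins MYOM2 and MYOM1 fell by 5.85, 5.29 and 4.79 on the log2 scale. MYH7B at -2.41 and MYL4, the atrial light chain, at -0.90 did not pass the test, although MYH7B did in the paired fit (adjusted p = 0.00732).

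Of 27 genes of the thin filament and Z-disc, 16 fell, with a median log2 fold change of -3.48. TNNT2, cardiac troponin T, had 10.3, 7.12 and 5.26 FPKM at day 10, against 2299.8, 5173 and 2222 FPKM at day 6. The groups did not overlap, and the log2 fold change was -8.49 ± 0.71 (limma adjusted p = 4.18e-05). ACTC1, cardiac alpha actin, had 4.64, 0.913 and 1.10 FPKM at day 10, against 427, 760.2 and 457 FPKM at day 6. ACTN2, the actinin that crosslinks actin at the Z-disc, had 0.633, 0.430 and 0.361 FPKM at day 10, against 147, 270.2 and 289 FPKM at day 6. TNNC1, troponin C, and DES, the intermediate filament desmin, fell by 7.23 and 6.85 on the log2 scale, as did CSRP3 and TCAP, small Z-disc proteins, by 6.84 and 6.56. ACTA1, skeletal actin, had 23.6, 12.4 and 9.64 FPKM at day 10, against 2845, 5251 and 3974 FPKM at day 6. In the paired fit, 24 of the 27 were lower.

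Z-disc genes tied to mechanical load were among those lost. ANKRD1, a titin-binding protein that loaded muscle induces, varied widely at day 10, with 88.1, 1.27 and 19.3 FPKM, against 2769.7, 1418 and 2229 FPKM at day 6. FLNC, the muscle filamin that anchors the Z-disc to the membrane, had 3.51, 9.71 and 23.0 FPKM at day 10, against 912, 634 and 1267 FPKM at day 6. Even the highest day 10 value of each gene lay far below its lowest day 6 value. Neither gene passed the test at the start of culture, with log2 fold changes for day 2 against day 0 of -0.37 and 0.20 (adjusted p = 0.885 and 0.907). FLNC averaged 107 FPKM at day 0, 131 FPKM at day 2, 938 FPKM at day 6 and 12.1 FPKM at day 10, so its level peaked at day 6. ANKRD1 averaged 1501, 1488.5, 2139 and 36.2 FPKM on those days. TPM1, the tropomyosin of striated muscle, which other cell types also make, kept 477, 307 and 899.8 FPKM at day 10, against 1405, 2165 and 1506 FPKM at day 6, a difference that did not pass the test (adjusted p = 0.113, and 0.0381 in the paired fit).

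**Figure D2:**
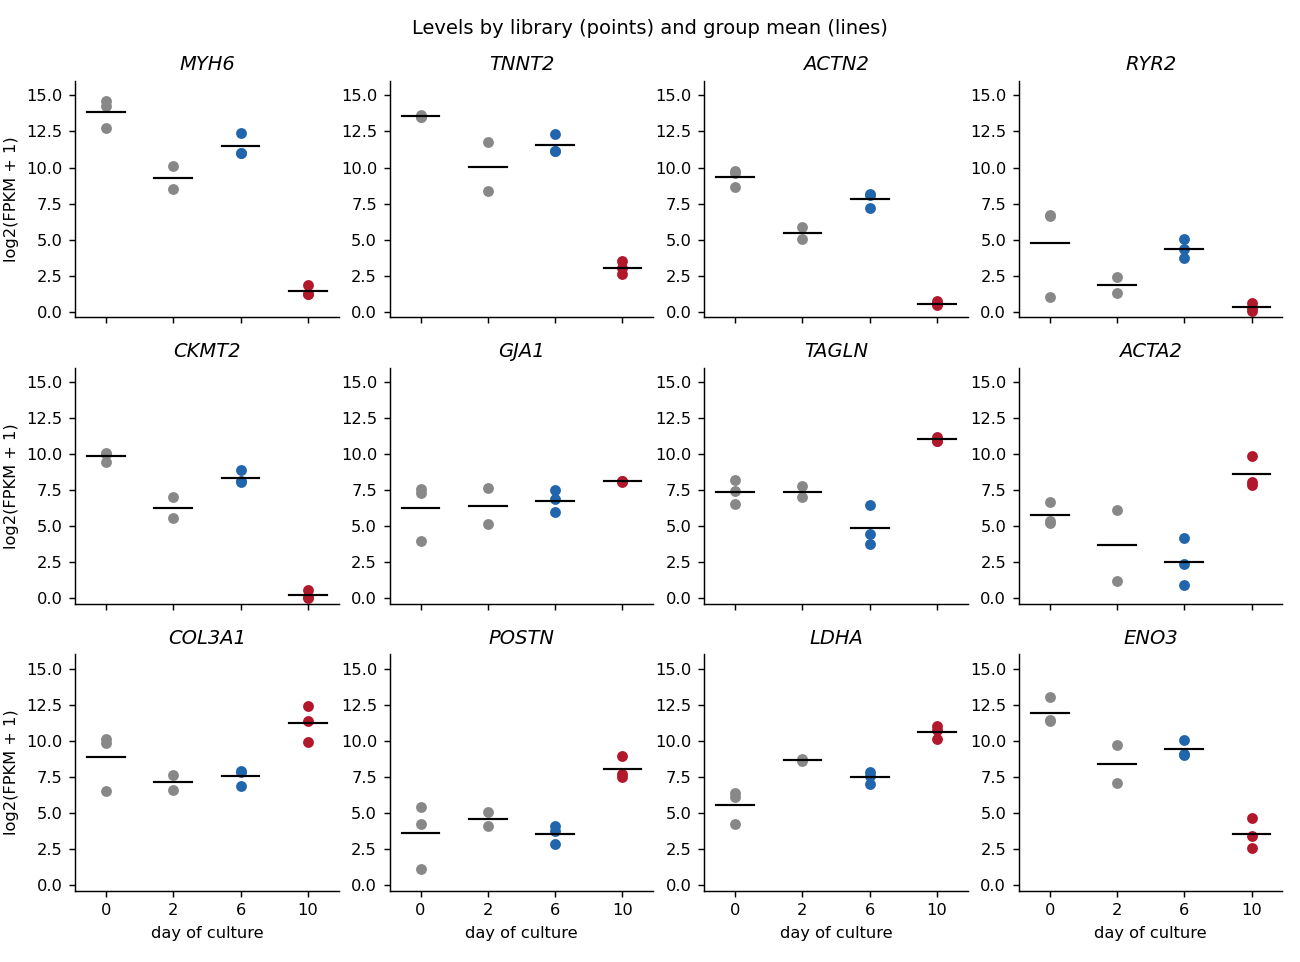
Level of 12 genes as log2(FPKM + 1) in every library (points) and group mean (lines) by day of culture, with day 10 in red, day 6 in blue and days 0 and 2 in grey. MYH6, TNNT2, ACTN2 and CKMT2 sit low on the scale in all 3 day 10 libraries, while TAGLN, ACTA2, COL3A1 and POSTN lie above all 3 day 6 libraries there.

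Genes of calcium cycling and the action potential that passed the test were all lower at day 10. Of 12 calcium genes, 3 were lower and 0 higher (median -2.45), and 8 were lower in the paired fit. SRL, the calcium-binding sarcalumenin of the sarcoplasmic reticulum, had 0.441, 0.582 and 1.00 FPKM at day 10, against 19.0, 78.4 and 39.3 FPKM at day 6 (log2 fold change -4.59 ± 0.62, limma adjusted p = 0.000831). TRDN, triadin, which holds the release channel to its calcium store, was at 0 in 2 of 3 day 10 libraries and 0.776 FPKM in the third, against 10.8, 26.1 and 16.3 FPKM at day 6. RYR2, the release channel itself, had 0.0147, 0.533 and 0.176 FPKM at day 10, against 12.0, 19.6 and 32.0 FPKM at day 6. Although these groups did not overlap, its log2 fold change of -4.08 ± 1.17 did not pass in the fit of all libraries (limma adjusted p = 0.066), whereas it did in the paired fit (0.000439). Day 0 replicate 2, with 1.02 FPKM where the other day 0 libraries had 102 and 99.9, is in the estimate of spread of that first fit, and without it the adjusted p was 0.000112.

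Of 12 channel genes, 5 were lower and 0 higher (median -2.67). POPDC2, a membrane protein of pacemaking and conduction that binds cyclic AMP, had 0.292, 0 and 0.145 FPKM at day 10, against 19.6, 29.5 and 81.8 FPKM at day 6. KCNJ4 and KCNJ5, which carry inward rectifier potassium current, fell by 4.15 and 4.23 on the log2 scale, and KCNH2, the channel of the rapid delayed rectifier, fell by 3.08. KCNIP2, the partner subunit of the transient outward channel, was the fifth, at -2.69, and lost its call without any 1 of 5 libraries (adjusted p up to 0.138). In the paired fit 10 of the 12 were lower. Without day 0 replicate 2, 7 calcium genes and 10 channel genes were lower.

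At the intercalated disc and the muscle membrane, 3 of 14 genes were lower and 0 higher (median -1.67). DSP, the desmosomal protein desmoplakin, had 0.0214, 0.00888 and 0.147 FPKM at day 10, against 30.6, 33.9 and 53.9 FPKM at day 6, and so a difference of -5.22 ± 0.81 on the log2 scale (limma adjusted p = 0.00237). SGCA, alpha-sarcoglycan of the membrane complex around dystrophin, fell by 4.20 on the log2 scale. CDH2, N-cadherin, had 1.83, 6.21 and 12.3 FPKM at day 10, against 119.5, 124 and 226 FPKM at day 6, and its call (adjusted p = 0.0359) was lost when any 1 of the 6 libraries was left out, with adjusted p up to 0.153. GJA1, the gap junction protein connexin 43, which fibroblasts also make, had 287, 264 and 285 FPKM at day 10, against 117, 61.2 and 182 FPKM at day 6. All day 10 values of GJA1 lay above all day 6 values, but the difference of 1.34 ± 0.88 did not pass (adjusted p = 0.401, and 0.0405 in the paired fit). The paired fit called 7 disc genes lower and 1, GJA1, higher. The same 6 libraries with no block gave 7 lower, the block over all libraries gave 3, and 7 were lower without day 0 replicate 2.

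Transcription factors of heart muscle had a median log2 fold change of -1.56, with 4 of 22 lower and 0 higher, and 15 lower in the paired fit. It was 13 for those 6 libraries with no block and 2 with the block over all libraries. IRX4, the ventricular homeobox factor, had 0.310, 0 and 0.0397 FPKM at day 10, against 7.77, 5.38 and 8.71 FPKM at day 6 (log2 fold change -2.88 ± 0.47, limma adjusted p = 0.00361). IRX3, a factor of the conduction system, had 0.353, 0.925 and 1.24 FPKM at day 10, against 12.3, 9.30 and 11.9 FPKM at day 6. SMYD1, a methyltransferase of striated muscle, had 0 reads in the 3 day 10 libraries and 529 in the 3 day 6 libraries, so it was at least 165-fold lower at day 10 with a floor of 3 reads over the group. ESRRA, a nuclear receptor that drives mitochondrial genes, fell by 1.83 on the log2 scale. Calls of SMYD1 and ESRRA were lost on leaving out single libraries, with adjusted p up to 0.201 and 0.149, and 2 to 9 factors of the list were called in such fits, with 2 left without day 6 replicate 2 or 3 or without any 1 day 10 library. MEF2C, GATA4 and SRF, at -1.63, -0.85 and -0.39, did not pass (adjusted p = 0.388, 0.537 and 0.701), although MEF2C did in the paired fit (0.0194).

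**Figure D3:**
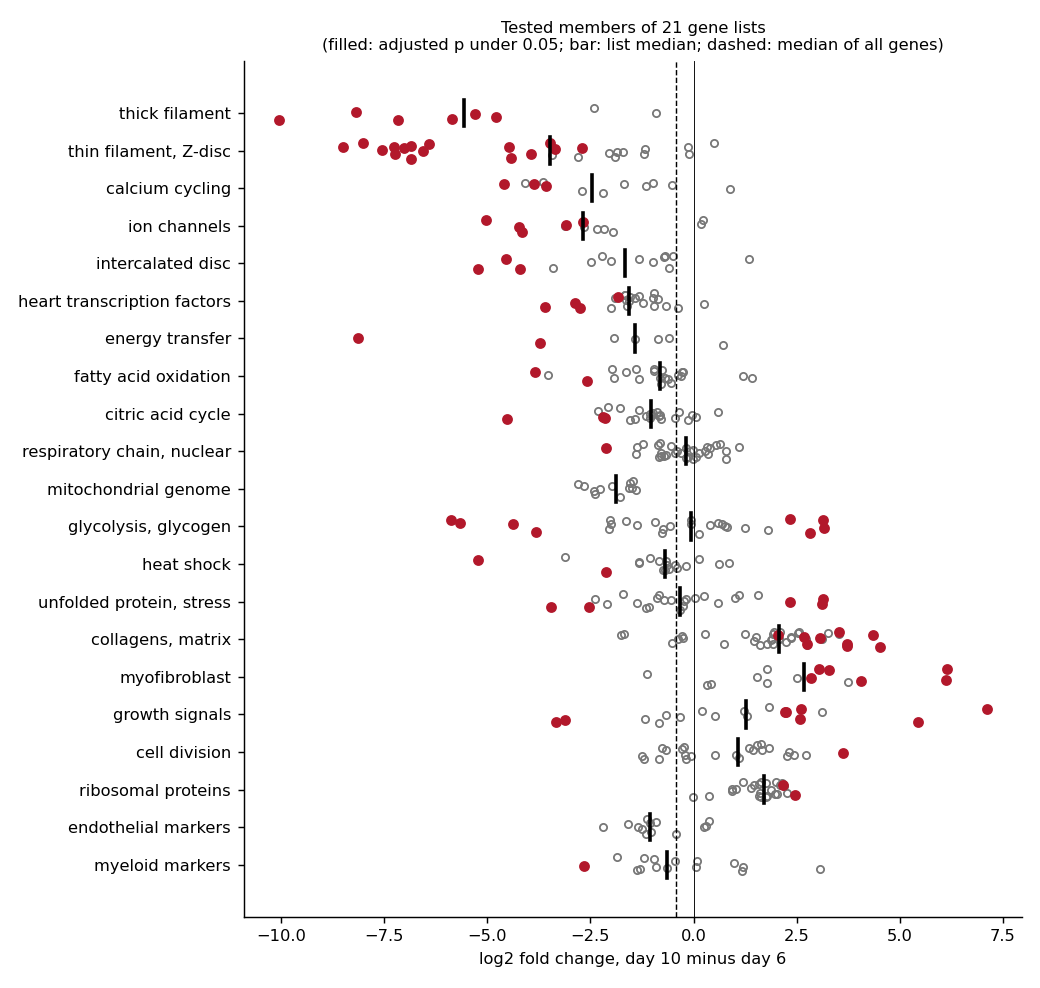
Log2 fold change of day 10 over day 6 (horizontal axis) of each tested member of 21 gene lists, filled where the adjusted p was under 0.05, with the median of each list as a bar and the median of all genes, -0.43, as a dashed line. The filled points of the muscle lists lie left of 0, those of the matrix and myofibroblast lists lie right of 0, and glycolysis has them on both sides.

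Mitochondrial energy supply changed unevenly. CKMT2 (ENSSSCG00000014128), the creatine kinase of muscle mitochondria, had 0.486, 0 and 0.0437 FPKM at day 10, against 263, 477 and 276 FPKM at day 6, and the mean at day 6 was 1917 times that at day 10. Its log2 fold change was -8.14 ± 0.47 (limma adjusted p = 3.16e-06). SLC25A4, the muscle form of the ATP/ADP carrier, fell by 3.72 on the log2 scale, and these were the 2 lower genes among 7 of phosphate transfer (median -1.41), of which the paired fit called 4. CKB, the brain creatine kinase, did not pass the test, with 160.2, 113 and 159 FPKM at day 10, against 90.2, 126 and 57.7 FPKM at day 6 (log2 fold change 0.70, adjusted p = 0.45).

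Of 22 genes of fatty acid oxidation, 2 were lower and 0 higher (median -0.80). CPT1B, the muscle form of the enzyme that admits fatty acids to mitochondria, had 0.814, 0.620 and 1.34 FPKM at day 10, against 17.1, 51.8 and 20.3 FPKM at day 6 (log2 fold change -3.84 ± 0.54, limma adjusted p = 0.00111). CPT1A, the form that other tissues use, had a log2 fold change of -0.55 (adjusted p = 0.69). OXCT1, which lets muscle burn ketone bodies, led the 3 lower genes among 24 of the citric acid cycle and its feeders (median -1.03), with 2.72, 3.27 and 2.86 FPKM at day 10, against 71.9, 92.5 and 107 FPKM at day 6. ACAA2, IDH2 and GOT1, at -2.58, -2.16 and -2.19, were the others called in these lists. Their calls were lost on leaving out single libraries, with adjusted p up to 0.131 for ACAA2, 0.187 for GOT1 and, for IDH2 without day 6 replicate 3, 0.0561. Without day 0 replicate 2, 7 fatty acid genes and 8 citric acid cycle genes were lower, and the paired fit called 7 and 9 lower, with 2 fatty acid genes higher. The count fell to 1 fatty acid gene without any 1 day 6 library or day 10 replicate 1 or 2, and to 1 citric acid cycle gene without day 6 replicate 3.

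The respiratory chain is built from genes of the nucleus and of the mitochondrial genome. Of 32 nuclear genes, 1 was lower (NDUFA4, -2.11, limma adjusted p = 0.047) and 0 were higher, and the median of -0.18 lay above that of all genes. That call was lost in 7 of the 11 fits without 1 library (adjusted p up to 0.196). The paired fit called 3 lower, beside 15.8% of all genes tested. The fit without day 0 replicate 2 also called 3 lower, beside 1013 of all 12625 genes. Of 12 genes of the mitochondrial genome, 0 passed the limma test in either direction, 9 were lower at an unadjusted p under 0.05, voom on recovered reads called 0, and the paired fit called 6 lower, as did the fit without day 0 replicate 2. All 12 had a negative log2 fold change, with a median of -1.88. COX1, subunit I of cytochrome c oxidase, had 20307, 10523 and 10056 FPKM at day 10, against 23610.4, 50425 and 33479 FPKM at day 6, so that its groups did not overlap (log2 fold change -1.40, adjusted p = 0.347). Genes of the mitochondrial genome made up 11.4%, 4.37% and 4.98% of summed FPKM at day 10, against 23.0%, 24.7% and 21.2% at day 6 (two-sided exact permutation p = 0.1). As percent of recovered reads, which are not divided by gene length, they made up 9.85%, 4.04% and 3.53% at day 10, against 15.05%, 19.7% and 14.5% at day 6.

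Glycolysis genes passed the test in both directions: 4 of 27 genes were higher, 4 were lower and the median was -0.06. The paired fit called 6 higher and 9 lower, and the fit without day 0 replicate 2 called 5 higher and 7 lower. Of the 4 lower ones, 3 were muscle forms. ENO3, the muscle enolase, had 24.3, 9.42 and 4.99 FPKM at day 10, against 528, 1082 and 551 FPKM at day 6, while ENO1, the enolase of most tissues, had 3665, 2888 and 3362 FPKM at day 10, against 721, 696 and 551 FPKM at day 6. The groups did not overlap for either enolase, with log2 fold changes of -5.87 ± 0.74 for ENO3 and 2.33 ± 0.40 for ENO1 (limma adjusted p = 0.000527 and 0.00451). PGAM2 and PYGM, the muscle forms of phosphoglycerate mutase and glycogen phosphorylase, fell by 5.65 and 4.38, and PYGB, the brain form of the phosphorylase, fell by 3.82. LDHA, the lactate dehydrogenase subunit that favours lactate, had 2130.1, 1728 and 1116 FPKM at day 10, against 234, 129 and 189 FPKM at day 6, a ratio of means of 9.02. SLC16A3, which exports lactate, and ALDOC, an aldolase of brain, rose by 3.15 and 2.81 on the log2 scale, the call of ALDOC being lost without any 1 of 4 libraries (adjusted p up to 0.0846). GAPDH was at -0.06 (adjusted p = 0.96), and the list's share of summed FPKM was 1.41 ± 0.364% at day 10 and 1.04 ± 0.0671% at day 6 (SD, n = 3 each, exact permutation p = 0.2).

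Among 9 genes of cardiac load and secreted peptides, 3 were higher and 4 lower, ACTA1 and ANKRD1 included. NPPB, the natriuretic peptide of strained ventricle, had 1.23, 0.637 and 0.734 FPKM at day 10, against 31.5, 65.7 and 51.1 FPKM at day 6 (log2 fold change -4.71 ± 0.67, limma adjusted p = 0.00125). CCK, a gut and brain peptide also transcribed in heart muscle, had 1.013, 0.884 and 1.64 FPKM at day 10, against 58.1, 416 and 112 FPKM at day 6. NTS, the peptide neurotensin, moved oppositely and reached 219.7, 76.7 and 39.2 FPKM at day 10, against 0.175, 0 and 0 FPKM at day 6. It had 3231 reads at day 10 and 2 at day 6, a ratio of 1720.0 once scaled to depth (95% interval 477.0 to 14200.0, counting error only). UCHL1, a ubiquitin hydrolase, and TMEM176B, a membrane protein, were the other higher genes, at 2.53 and 2.33, and without day 6 replicate 2 or 3 only 1 of the 3, NTS, was called (adjusted p up to 0.0585 for UCHL1 and 0.145 for TMEM176B).

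Myofibroblast genes rose, 6 of 14 higher and 0 lower, with a median log2 fold change of 2.68. TAGLN, the actin-binding protein transgelin of smooth muscle and myofibroblasts, had 1946, 2395 and 1971 FPKM at day 10, against 20.96, 87.5 and 12.8 FPKM at day 6. Its day 10 libraries lay close together and all far above day 6, and the log2 fold change was 6.13 ± 0.64 (limma adjusted p = 0.00017). ACTA2, smooth muscle alpha actin, had 264, 230.2 and 959 FPKM at day 10, against 4.20, 17.4 and 0.863 FPKM at day 6 (log2 fold change 6.11 ± 1.11, limma adjusted p = 0.00697). CTHRC1, a secreted protein of activated fibroblasts, CDH11, a cadherin of mesenchymal cells, S100A4, a calcium-binding protein of migrating cells, and ACTG2, a visceral smooth muscle actin, rose by 3.27, 3.04, 4.07 and 2.85. The calls of S100A4 and ACTG2 were lost without any 1 of 5 libraries (adjusted p up to 0.0962 and 0.131). Among those that did not pass, CNN1, calponin, was at 1.54 (adjusted p = 0.221) and CCN2, a matricellular growth factor, at 0.34 (0.888). MYH11, smooth muscle myosin and a mural marker, did not pass either, at -0.97 (adjusted p = 0.506), with 0.616 ± 0.605 FPKM at day 10 and 2.29 ± 1.63 FPKM at day 6 (SD, n = 3 each). In the paired fit 10 of the 14 were higher.

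The matrix genes that passed were all higher at day 10. Of 40 collagens, glycoproteins and proteoglycans, 9 were higher, 0 lower and 31 did not pass, with a median of 2.07. A negative log2 fold change was found in 6 of those 31, the lowest in ELN, elastin, at -1.77 (adjusted p = 0.251). COL1A2, a chain of type I collagen, had 184, 547 and 1467 FPKM at day 10, against 48.6, 42.6 and 28.7 FPKM at day 6. COL3A1, the chain of type III collagen, had 961, 2656 and 5604 FPKM at day 10, against 238, 226 and 116 FPKM at day 6. Both were higher in all 3 day 10 libraries, with replicate 3 highest and replicate 1 lowest among them. POSTN, periostin, a matricellular protein of activated cardiac fibroblasts, had 209, 183 and 503 FPKM at day 10, against 16.1, 6.03 and 12.2 FPKM at day 6 (log2 fold change 4.52 ± 0.88, limma adjusted p = 0.0101). The leucine-rich proteoglycans FMOD, BGN and LUM, which bind collagen fibrils, rose by 4.35, 3.52 and 3.07, and SPARC, COL6A2 and the collagen-modifying hydroxylase P4HA2 rose by 2.69, 2.75 and 2.04. FN1, fibronectin, at 50.1, 323 and 939 FPKM at day 10, against 27.2, 31.8 and 24.4 FPKM at day 6, did not overlap but did not pass (log2 fold change 3.12 ± 1.10, adjusted p = 0.132, and 0.0171 in the paired fit).

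The count of matrix genes depended on single libraries. With day 6 replicate 2 left out it was 2. It was 3 if day 6 replicate 3 or day 10 replicate 2 or 3 was left out, 4 for day 6 replicate 1, and 13 for day 10 replicate 1. Leaving out day 0 replicate 2 gave 19, and the paired fit gave 25 higher and 1 lower (FBLN5, which encodes an elastic fibre protein). The same 6 libraries with no block gave 21 higher, and the block over all libraries gave 8. COL1A2, COL3A1 and LUM each lost the call in 5 of those fits, with adjusted p up to 0.0901, 0.128 and 0.0776, as did SPARC, COL6A2 and P4HA2, with up to 0.153, 0.1202 and 0.0899, and POSTN lost it without day 6 replicate 2 (0.0540). FMOD and BGN kept it in every fit that left out a library. The list, here with all 41 measured genes, held 0.544%, 1.35% and 3.87% of summed FPKM at day 10, against 0.326%, 0.295% and 0.242% at day 6 (two-sided exact permutation p = 0.1). As percent of recovered reads it was 1.44%, 4.05% and 9.13% at day 10, against 0.792%, 0.793% and 0.625% at day 6. Of 22 matrix proteases and inhibitors, 1 was higher, MMP19 (log2 fold change 2.80, limma adjusted p = 0.00735), and 0 were lower, against 3 and 1 in the paired fit. The collagenase MMP1 and the inhibitor TIMP1, at -0.19 and -0.12, did not pass (adjusted p = 0.88 and 0.91).

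**Figure D4:**
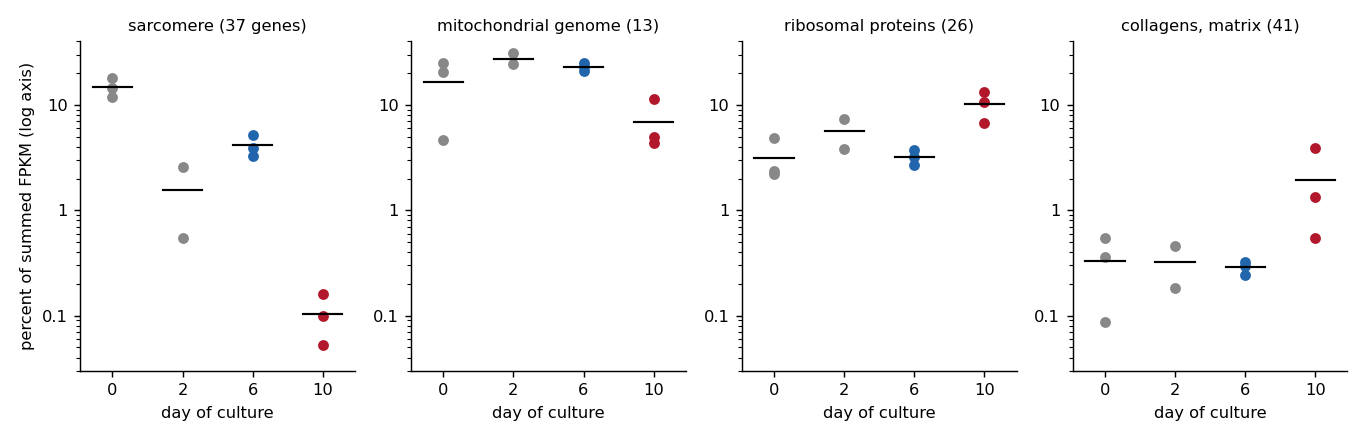
Percent of summed FPKM held by 4 gene groups in each library (points) with group means (lines) by day of culture, on a log axis. The sarcomere group is at 0.0527% to 0.159% in the day 10 libraries and 3.30% to 5.21% in the day 6 libraries, and the ribosomal and matrix groups are higher in all 3 day 10 libraries than in any day 6 library.

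Secreted growth signals included the sharpest gains. Of 18 genes, 6 were higher and 2 lower, with a median of 1.26. AREG, amphiregulin, a ligand of the epidermal growth factor receptor, had 1064, 117 and 47.4 FPKM at day 10, against 0.835, 0.132 and 0.102 FPKM at day 6. Replicate 1 was the highest of its group on both days, and the log2 fold change of 7.11 ± 0.86 was the largest gain of the named genes (limma adjusted p = 0.000422). IGFBP6 and IGFBP4, which bind insulin-like growth factors, had 423, 1269 and 751 FPKM and 1338, 1034 and 1709 FPKM at day 10, against 22.1, 20.3 and 9.13 FPKM and 248, 209 and 214 FPKM at day 6. IGFBP7, ANGPTL4, an inhibitor of lipoprotein lipase, and HGF, hepatocyte growth factor, rose by 2.21, 2.24 and 2.61, with adjusted p up to 0.107, 0.0527 and 0.155 when 1 library was left out.

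HBEGF, another ligand of the same receptor as AREG, was lower, with 4.04, 3.83 and 1.90 FPKM at day 10, against 32.2, 186 and 10.7 FPKM at day 6 (log2 fold change -3.33, limma adjusted p = 0.0395, and up to 0.147 when 1 library was left out). STC1, the hormone stanniocalcin, fell by 3.12. Without day 6 replicate 1 or 2, or any 1 day 10 library, 1 of these falls was called, and the paired fit called 10 genes of the list higher. TGFB1, TGFB2 and TGFB3, the ligands best known for inducing myofibroblasts, did not pass, at -0.85, 0.51 and 0.21 (adjusted p = 0.391, 0.676 and 0.85).

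Among the 15 named genes with the largest gains, several stood outside these lists, secreted or surface proteins of connective tissue among them. SFRP2, which binds WNT ligands, had 134, 171 and 545 FPKM at day 10, against 0.883, 1.19 and 2.84 FPKM at day 6. NT5E, the ecto-enzyme CD73 that makes adenosine, had 318, 222 and 439 FPKM at day 10, against 7.01, 6.30 and 7.23 FPKM at day 6. In each of these genes every day 10 library was far above every day 6 library. PTN, the growth factor pleiotrophin, S100A6, a calcium-binding protein, and ISLR, a surface protein of mesenchymal cells, rose by 4.82, 4.48 and 4.41. All of these kept their call in every fit that left out a library.

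Stress responses changed in part. Of 18 heat shock proteins and cochaperones, 2 were lower, HSPB8 and BAG3, and 0 were higher (median -0.68). These partners of chaperone-assisted autophagy clear damaged Z-disc proteins, filamin among them. HSPB8 had 10.4, 1.72 and 3.75 FPKM at day 10, against 142, 339.6 and 158 FPKM at day 6 (log2 fold change -5.23 ± 0.56, limma adjusted p = 0.000198). BAG3 fell by 2.11, a call lost without any 1 of 5 libraries (adjusted p up to 0.166), and the paired fit called 5 genes of the list lower. MT1X, a metallothionein, had 55.1, 34.9 and 11.8 FPKM at day 10, against 538, 7804 and 578 FPKM at day 6, and MT3, at -4.80, was the other called gene of 5 in the metal list. MT1X was called in every fit without 1 library, while MT3 lost its call without day 6 replicate 2 or any 1 day 10 library (adjusted p up to 0.107).

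Within the unfolded protein and integrated stress responses, 3 of 25 genes were higher and 2 lower, with a median of -0.32. The higher ones were all of the serine pathway: PHGDH had 121, 84.8 and 146 FPKM at day 10, against 16.02, 6.52 and 16.6 FPKM at day 6, and PSPH and PSAT1 rose by 3.10 and 2.34, of which PSAT1 lost its call without any 1 of 7 libraries (adjusted p up to 0.186). ATF3, a stress-induced transcription factor, and PPP1R15A, which restarts translation after stress, fell by 3.45 and 2.55, and lost their calls in 3 and 4 fits without 1 library (adjusted p up to 0.0930 and 0.0801). The lower genes of this list numbered 0 without day 6 replicate 1 or 2 or day 10 replicate 2. They numbered 1 when day 10 replicate 1 was left out, 5 when day 0 replicate 2 was, and 5 in the paired fit. The higher genes of the list numbered 2 to 4 in the fits without 1 library, with 4 without day 0 replicate 2, and 4 in the paired fit. HSPA5, a chaperone of the endoplasmic reticulum, was at -2.39 and did not pass (adjusted p = 0.136, and 0.0173 in the paired fit).

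Of 16 targets of hypoxia-inducible factor, 2 were higher (LDHA and ENO1, also in the glycolysis list) and 0 lower, with 4 higher without day 0 replicate 2 and 6 in the paired fit, while VEGFA, at -0.32, did not pass (adjusted p = 0.83). Of 13 NRF2 targets, 20 cholesterol genes, 17 interferon genes and 11 complement and antigen presentation genes, 0 passed the limma test. At an unadjusted p under 0.05 these lists had 5, 3, 2 and 1 genes, voom called 1, 0, 0 and 1, the paired fit called 4, 5, 3 and 1, and the fit without day 0 replicate 2 called 3, 3, 2 and 1. Of all genes tested, 20% were under an unadjusted p of 0.05, and the paired fit called 6.43% higher and 15.8% lower. CXCL2, a chemokine for neutrophils, was the 1 lower gene of 15 inflammatory genes, with 4.84, 8.31 and 3.73 FPKM at day 10, against 405, 138 and 65.2 FPKM at day 6. Without day 6 replicate 1 its adjusted p was 0.0550. The alarmins IL18 and IL33 and the chemokine CXCL14 were the 3 higher ones, at 4.18, 3.76 and 2.53, of which IL33 and CXCL14 lost their calls without single libraries (adjusted p up to 0.143 and 0.09999), leaving 1 higher gene without day 6 replicate 2 or 3 or day 10 replicate 1 or 2, and the paired fit called 5. Of 14 immediate early factors 1 was lower, EGR3 at -1.96, a factor that growth signals induce. In 8 of the 11 fits without 1 library the count was 0, it was 7 without day 0 replicate 2, and the paired fit called 8.

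Genes of cytosolic ribosomes held a larger share of FPKM at day 10, although few passed the test. Of 26 cytosolic ribosomal protein genes, 25 had a positive log2 fold change, with a median of 1.70. The groups did not overlap in 24 of the 26, beside 37.7% of all genes tested, but 2 passed, RPS18 and RPS23. Both calls were lost in 7 fits without 1 library (adjusted p up to 0.199 and 0.206). RPS23 had 8570.2, 14207 and 3466 FPKM at day 10, against 1401, 1384 and 1338 FPKM at day 6 (log2 fold change 2.45 ± 0.64, limma adjusted p = 0.046). The day 6 values lay close together, and the day 10 values spread widely above them. As a group these genes held 10.7%, 13.2% and 6.74% of summed FPKM at day 10, against 3.71%, 2.71% and 3.21% at day 6 (two-sided exact permutation p = 0.1). As percent of recovered reads they held 7.37%, 8.56% and 3.74% at day 10, against 2.06%, 1.69% and 1.71% at day 6. Their share of summed FPKM was also 7.39% in day 2 replicate 1 and 4.80% in day 0 replicate 2, the libraries with most genes at 0. It was 2.19% to 3.80% in the other libraries of those days. The part of such library differences was not tested. The number called was 0 in 7 of the 11 fits without 1 library, those without a day 6 library among them, 4 with either day 2 library left out, 8 for day 10 replicate 3 and 15 for day 0 replicate 2. It was 19 in the paired fit, 17 for the same 6 libraries with no block, 0 with the block over all libraries and 0 with voom. Of 44 mitochondrial ribosomal genes, 0 passed the limma test, 2 were higher at an unadjusted p under 0.05 and voom called 0 (median -0.04).

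Of 24 genes of cell division, 1 was higher and 0 lower, with a median of 1.07, and 8 were higher in the paired fit. CCNB1, cyclin B1, had 65.8, 6.75 and 29.7 FPKM at day 10, against 1.06, 1.42 and 0.694 FPKM at day 6, with a call (adjusted p = 0.0468) lost in 7 of the 11 fits without 1 library (adjusted p up to 0.199). The mitotic genes KIF20A, CDK1 and AURKB, at 2.72, 2.43 and 2.32, did not pass (adjusted p = 0.0819, 0.154 and 0.121, and 0.00774, 0.0242 and 0.0131 in the paired fit). CDKN2A, which encodes inhibitors of the cell cycle and is known as a marker of senescent cells, had 27.7, 43.5 and 22.7 FPKM at day 10, against 0.887, 0.238 and 0.920 FPKM at day 6 (log2 fold change 4.24 ± 0.47, limma adjusted p = 0.000254). It was the 1 gene called among 10 of p53 and cell death. ASB2, a muscle ubiquitin ligase, was the 1 lower gene of 22 in the proteasome and ligase list (-2.99), and TFEB, a factor of lysosome genes, was the 1 lower gene of 23 in the autophagy list (-1.82), lost in 7 of the 11 fits without 1 library (adjusted p up to 0.148). In the paired fit 3 genes were lower in each of these last 3 lists, of 10, 22 and 23 tested, beside 15.8% of all genes tested. That fit also called 1 gene of p53 and cell death and 1 autophagy gene higher.

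Markers of other cell types moved with the groups to different degrees, and their part in the results above was not tested. Of 9 tested fibroblast markers, 3 were higher at day 10 and 0 lower (LUM, COL3A1 and COL1A2, also in the matrix list), and the 10 measured ones summed to 1774 to 8413 FPKM at day 10 and 327 to 637 FPKM at day 6. Without day 6 replicate 2 or 3, or day 10 replicate 2 or 3, 0 of them passed, without day 6 replicate 1 it was 1, and the paired fit called 4 higher and 1 lower. PDGFRA, the receptor that marks resting fibroblasts, ranged from 4.32 to 72.4 FPKM at day 10 and from 4.91 to 12.2 FPKM at day 6 (adjusted p = 0.557). The 12 measured mural markers, of which 11 were tested, summed to 2376 to 3338 FPKM at day 10 and 1903 to 2078 FPKM at day 6. Of these markers TAGLN and ACTA2 were higher and DES lower, and MYH11 and NOTCH3 were at or below 4.04 FPKM in every library of both days.

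Of 13 endothelial markers, 0 passed the limma test, 1 was lower at an unadjusted p under 0.05 and voom called 0. That 1 gene was FLT1, a receptor of vascular endothelial growth factor, which also passed in the paired fit (adjusted p = 0.0109). Their sum was 456 to 1457 FPKM at day 10 and 1123 to 2620 FPKM at day 6, and PECAM1, the adhesion molecule CD31, had 228, 838 and 706 FPKM at day 10, against 1150.5, 1794 and 728 FPKM at day 6 (log2 fold change -1.16, adjusted p = 0.441). The 15 myeloid markers summed to 55.5 to 1107 FPKM at day 10 and 226 to 480.2 FPKM at day 6. CSF1R, the receptor that macrophages need to survive, was the 1 lower gene among them, with 2.82, 2.13 and 0.943 FPKM at day 10, against 18.6, 25.999 and 9.94 FPKM at day 6, and its adjusted p without day 6 replicate 2 was 0.0515. The paired fit called 3 myeloid markers higher and 5 lower.

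The 11 measured lymphocyte markers, of which 8 were tested, were low on both days, with sums of 34.96 to 79.9 FPKM at day 10 and up to 39.01 FPKM at day 6. CD3D was listed at 0 at day 10, and GZMA, a protease of killer lymphocytes, was the 1 higher gene of 8, with 7.85, 65.4 and 23.2 FPKM at day 10, against 0.0727, 2.44 and 0.226 FPKM at day 6. GZMA went against most of its list, in which 6 of the 8 had a negative log2 fold change (median -0.86). The limma test called 0 of the 8 lower, the paired fit 2 and voom 1. KRT8, a keratin of epithelia and mesothelium, was the 1 lower epicardial marker of 2, with 2.28, 0.4997 and 0.144 FPKM at day 10, against 107, 13.1 and 209 FPKM at day 6. HBB, beta globin of red cells, had 1 read at day 10 and 246 at day 6 and did not pass (adjusted p = 0.0681, and 0.00289 in the paired fit). Of 2 adipocyte and 3 Schwann cell markers, 0 passed the limma test, 0 were under an unadjusted p of 0.05, and voom called 1 adipocyte marker lower.

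The late change was set beside the first change in culture, day 2 against day 0, which shares no library with it. Both came from the fit of all 11 libraries, with 1 estimate of spread per gene. A gene with a small spread is thus more readily called in both, and the overlap was not tested. Of 12625 genes, 727 (5.76%) were higher and 397 (3.14%) lower at day 2 than at day 0, or 337 higher and 816 lower with median ratio scaling, and the median log2 fold change was 0.51. Of the 378 genes that were lower at day 10 than at day 6, 147 (38.9%) had already been lower at day 2 than at day 0 and 26 (6.88%) had been higher, with a median early log2 fold change of -1.73. Those 147 were 37.03% of all genes lower at day 2. As a description, since the day 6 and day 10 levels chose these genes, 370 of the 378 had a higher mean at day 6 than at day 2, 161 had a higher mean at day 6 than at day 0, and 334 had their lowest mean of the 4 days at day 10. Of the 241 genes that were higher at day 10 than at day 6, 45 (18.7%) had been higher at day 2 and 0 lower, with a median early change of 0.72.

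Of the 35 sarcomere genes, 17 were lower and 0 higher at day 2 than at day 0, with a median of -3.01, and 14 were lower at both steps. MYH6 averaged 17069 FPKM at day 0, 733 FPKM at day 2, 3152 FPKM at day 6 and 1.74 FPKM at day 10, so that its mean at day 6 lay above that at day 2. Its early log2 fold change was -4.56 (adjusted p = 0.00258), beside the late one of -10.05. Other genes ran in opposite directions early and late. MT1X, STC1 and CXCL2 were higher at day 2 than at day 0 by 5.08, 5.15 and 4.21 on the log2 scale (adjusted p = 0.0103, 0.00114 and 0.0216), beside late changes of -5.51, -3.12 and -4.61. The myofibroblast genes TAGLN and ACTA2 showed no early gain that passed, at -0.0044 and -2.08 (adjusted p = 0.9995 and 0.309), whereas LDHA, ENO1, BGN and IGFBP4 were higher at both steps, with early changes of 3.09, 3.95, 2.98 and 2.13.

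**Figure D5:**
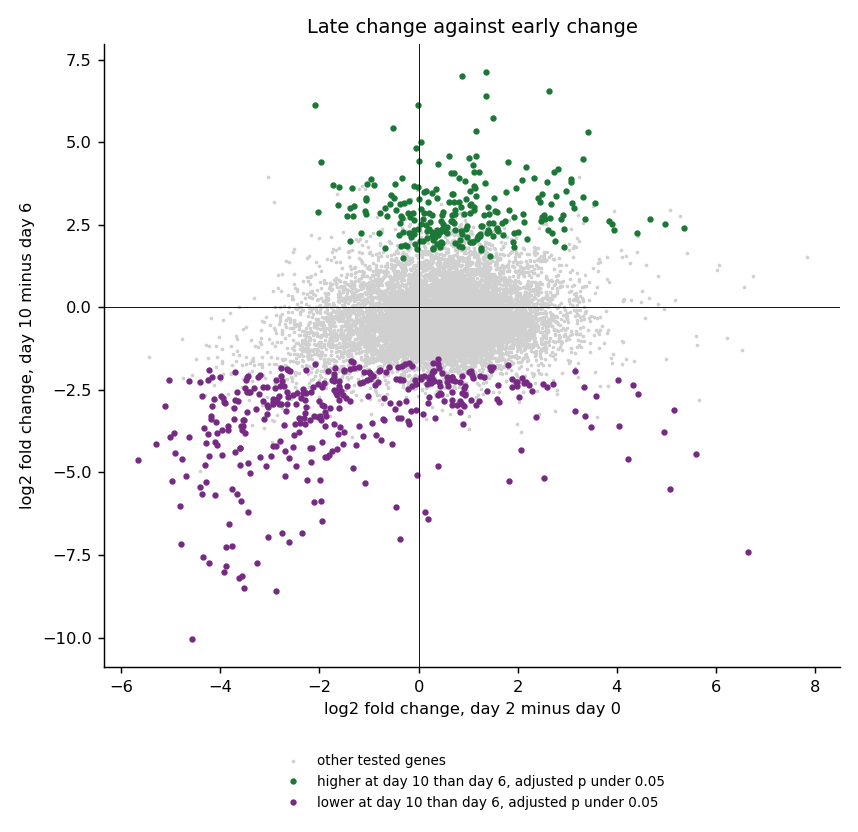
Log2 fold change of day 10 over day 6 (vertical axis) against that of day 2 over day 0 (horizontal axis) for 12625 genes, with the 241 genes higher and the 378 genes lower at day 10 in colour. Most lower genes lie left of 0, with a median early change of -1.73, and the lowest of them is MYH6 at -4.56 and -10.05.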

How the data were processed

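RNA-seq of heart slices was given as 1 table of FPKM values that the authors deposited, with 16319 genes and 1 column per library. The labels' protocols give Trizol extraction of total RNA and TruSeq libraries, while Bowtie 0.12.2 and a mouse build, mm8, are listed without a role, per the submitters' processing notes. The tool behind the FPKM values is not given in the sources used here. Symbols were matched by gene ID, for 9686 genes. The low values were whole multiples of a step for all 16073 genes above 0 (tolerance 0.01 reads), so whole reads were recovered and used for depth, floors and intervals, which cover counting error only.

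Values were tested as log2(FPKM + 1) with limma 3.58.1 in R 4.3.3, on genes with a mean of at least 1 FPKM over the 11 libraries, in 1 fit of 4 groups with a mean-variance trend, 7 residual and 5.89 prior degrees of freedom, and Benjamini-Hochberg adjustment over 12625 genes at 0.05. A fold change on this scale understates the change of low genes. Of the genes tested, 8157 had a symbol, and the others were counted, not named. Summed FPKM differed between libraries, from 682020.0 to 1112101.5, so alternatives with equal total, median ratio and quantile scaling were run, beside other pseudocounts, filters, spread estimates and sample sets, voom on recovered reads, and leaving out each library. Replicate numbers come from the labels, which do not say what they mark. Same-numbered day 10 and day 6 libraries deviated together, with every correlation over 0.1, so the fit with the number as a block is given wherever it changes a call. The scripts were tested on simulated data.

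Named genes were the 15 higher and 15 lower called genes with the largest change and a mean of at least 5 FPKM in the higher group, up to 4 called members per list by p, or 2 by level where none was called, and a panel of 16 cardiac and matrix genes, of which 11 were measured. Members and lists were chosen with earlier results of these data known, and named genes outside the rule were chosen after their values were seen. Results for a few genes are not reported here.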

Additional observations from a re-analysis of the deposited data

How the results depend on the processing

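Of the 88 called genes named by rule, 64 kept their call in every fit that left out 1 library and none changed direction under any alternative. The number called for day 10 against day 6, 619 in the fit reported, was 1130 with quantile scaling (625 higher), 1903 with only day 6 and day 10 in the fit (622 higher, 1281 lower), 1131 without day 0 (387 higher, 744 lower) and 5958 with array weights (1472 higher, 4486 lower). With the replicate number as a block it was 504 over all libraries and 2806 over the 6 paired ones (812 higher, 1994 lower). Leaving out each library in turn gave 273 to 1544 calls, 91 to 531 higher and 154 to 1013 lower. The fits of the 6 libraries, without day 0, with array weights and with 6 paired libraries each kept all 619 calls, against 451 with median ratio scaling and 491 with voom. For day 2 against day 0, with 727 higher and 397 lower, equal total scaling gave 721 calls and 432 higher, median ratio scaling 337 higher and 816 lower, quantile scaling 1725 calls and 1018 lower, array weights 476 higher and 640 lower, and voom 333 higher and 678 lower. Leaving out each library there gave 360 to 1763 calls, 188 to 842 higher and 162 to 921 lower. Among named genes that did not pass, the sign turned for IRF9 (0.22 with median ratio scaling, 0.16 with voom), MX1 (0.03 with median ratio scaling), SLA-DQB1 (-1.13 to 0.27 on leaving out single libraries, positive without day 10 replicate 3), SERPING1 (0.07 with median ratio scaling, and -0.93 to 0.36 on leaving out single libraries, positive without day 10 replicate 1), ENG (-0.28 to 1.25 on leaving out single libraries, negative without day 10 replicate 3) and LIPE (0.02 with median ratio scaling, 0.25 with quantile scaling, 0.04 with voom). The cause was not tested in any of these. Differences in shares of summed FPKM, day 10 minus day 6, kept their sign under each alternative. As percent of recovered reads the difference was -10.61 for the mitochondrial genome (against -16.03), 4.137 for matrix (against 1.632) and -0.4291 for heat shock genes (against -0.2864). With mitochondrial genes left out of the total it was -5.278 for the sarcomere (against -4.037), -0.6551 for nuclear respiratory chain genes (against -0.3419) and -0.4263 for heat shock genes. The others moved by less than the larger of both SDs, and 3 libraries a day limit the exact test to p = 0.1.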

Other observations

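Further named genes outside the lists passed the limma test, and were chosen here after their values were seen, so they say nothing of the groups they belong to. ADRB1, the main beta receptor of heart muscle, had a mean of 0.133 FPKM in day 10 slices and of 9.55 FPKM in day 6 slices (log2 fold change -3.14, limma adjusted p = 0.0191, up to 0.0973 with 1 library left out), and ADCY5 and ADCY6, the adenylyl cyclases of heart, were at -2.57 and -2.83 (up to 0.0971 and 0.162 in the same way). CAMK2A, a calcium-dependent kinase, had means of 0.0602 FPKM in day 10 slices and 14.3 FPKM in day 6 slices (adjusted p = 0.000547). Also lower were UNC45B, a myosin chaperone, at -2.85, NRAP, a scaffold of growing myofibrils, at -4.35, LRRC39, an M-band protein, at -4.54, and RBM20, a splicing factor of titin, at -3.60, whose call was lost on leaving out single libraries (adjusted p up to 0.135).

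Among the higher genes, VIM, the intermediate filament vimentin of mesenchymal cells, had 3341 ± 1036 FPKM in day 10 slices and 597 ± 299 FPKM in day 6 slices (SD, n = 3 each, limma adjusted p = 0.0331, up to 0.161 with 1 library left out). PTGES, a synthase of prostaglandin E2, reached 266 FPKM on average in day 10 slices, against 15.004 FPKM in day 6 slices (log2 fold change 4.09, limma adjusted p = 0.000422). PRRX2, a homeobox factor of mesenchyme, LGALS3, galectin 3, and CHI3L1, a secreted chitinase-like protein, were higher by 3.89, 3.17 and 3.47 on the log2 scale, and these and PTGES were called in every fit that left out 1 library. Also higher were ALDH1A1, which oxidises retinal, at 3.71, and the retinoid carriers CRABP2 and RBP4 at 3.32 and 1.72, each with a call lost in 5 of the 11 fits without 1 library.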
